A study of Mus musculus with 6 samples.

Results

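The genes Junb, Dusp1, Socs3, Bcl3, Per1 and Nfil3, which are induced early by growth factors, cytokines or hormones or which belong to the circadian clock, were followed in laser-captured epithelial cells of the crypt base in the mouse ileum. They were taken by symbol from the authors' annotated table, where 7 of its 1053 probe sets carry 1 of the 6 symbols, out of 28853 probe sets on the array. Both the table and these genes were selected on the measured difference between genotypes, so their genotype values are given as a description, with no test. The samples were 3 arrays of WT mice and 3 arrays of mice lacking Nod2 (Nod2-/-), the cytosolic sensor of bacterial cell wall fragments. All mice were 8 weeks old and on the C57BL/6J background, and no other allele or treatment is named for either genotype. The Nod2 allele is not described in the labels, Nod2 itself has no named probe set here, and the genotype labels were therefore not checked by its level. The labels call the cells laser captured Paneth cells, and the alpha-defensins, Lyz1, Mmp7 and Ang4, which define that cell type, have no named probe set here. Names are known here only for the annotated table, which admits probe sets by their genotype difference. A gene without a named probe set, Nod2 included, may therefore still have been measured on the array. Whether the 3 arrays of a genotype come from separate mice is not stated, so the spread between them may in part be technical.

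Immediate early genes are transcribed within minutes of a signal, without new protein synthesis. Many of their products end the signal that induced them. JunB is a subunit of the transcription factor AP-1, and Dusp1 encodes a phosphatase that switches off p38 and JNK kinases. Socs3 encodes an inhibitor of the gp130 receptor and its JAK kinases, which act through STAT3. Bcl3 encodes an atypical IκB protein that joins the p50 and p52 subunits of NF-κB in the nucleus. Per1 is a repressor in the circadian feedback loop, and Nfil3 is a bZIP repressor that binds D-box elements opposite the activators Dbp, Tef and Hlf. In the gut, IL-22 and IL-6 family cytokines act on crypt cells through STAT3, and glucocorticoids induce Per1 and Dusp1 in many tissues.

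The regulatory sequence before the starts of these genes is shown because their known inducers act through short, recognisable elements. The 6 genes were chosen for being higher in Nod2-/-, so no shared control is read from their common direction. RefSeq (GRCm38.p6) gave 7 windows for the 6 genes, with a pair of starts for Per1. In the 250 bases before each start, both strands were searched for the cAMP response element TGACGTCA and its 6-base form TGACGT, the AP-1 site TGANTCA, the E-box CACGTG of the clock activators, the D-box TTATGNAA, the STAT site TTCNNNGAA, the glucocorticoid response element (the inverted repeat of AGAACA with 3 bases between), and the κB site and CArG box by their consensus. The 6-base form lies within the full cAMP response element, and each such overlap is counted under both. The 4 windows that held a match follow, with matched bases in capitals.
Dusp1, chr17:26508473-26508722, minus strand: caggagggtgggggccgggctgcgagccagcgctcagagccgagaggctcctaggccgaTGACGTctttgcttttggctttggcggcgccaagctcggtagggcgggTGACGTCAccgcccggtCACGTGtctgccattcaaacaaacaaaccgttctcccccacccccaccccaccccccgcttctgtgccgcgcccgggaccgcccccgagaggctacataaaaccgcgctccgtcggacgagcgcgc
Per1, upstream start, chr11:69098699-69098948, plus strand: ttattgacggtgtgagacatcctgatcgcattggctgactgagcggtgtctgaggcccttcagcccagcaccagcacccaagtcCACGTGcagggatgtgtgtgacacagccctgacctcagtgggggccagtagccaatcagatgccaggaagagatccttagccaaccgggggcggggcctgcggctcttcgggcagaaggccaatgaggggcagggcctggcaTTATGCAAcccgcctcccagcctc
Per1, downstream start, chr11:69099902-69100151, plus strand: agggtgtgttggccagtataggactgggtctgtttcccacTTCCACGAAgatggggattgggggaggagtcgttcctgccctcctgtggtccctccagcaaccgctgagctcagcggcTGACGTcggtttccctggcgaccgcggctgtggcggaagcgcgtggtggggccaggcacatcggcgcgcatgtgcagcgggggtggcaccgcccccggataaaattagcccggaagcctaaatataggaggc
Socs3, chr11:117969367-117969616, minus strand: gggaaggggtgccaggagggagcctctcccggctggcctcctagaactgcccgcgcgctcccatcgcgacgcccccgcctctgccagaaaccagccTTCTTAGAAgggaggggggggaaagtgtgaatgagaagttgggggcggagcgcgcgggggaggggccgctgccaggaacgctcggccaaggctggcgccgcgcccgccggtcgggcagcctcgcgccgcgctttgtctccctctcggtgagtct

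The Dusp1 window held a full cAMP response element from 143 to 136 bases before the start, a further 6-base form from 191 to 186, and an E-box from 126 to 121. At Per1, the upstream start had an E-box from 166 to 161 bases before it and a D-box, the element that Nfil3 binds, from 24 to 17. The downstream start of Per1 had a 6-base cAMP element from 132 to 127 and a STAT site from 210 to 202. Socs3 had a STAT site from 154 to 146. Among all 32851 RefSeq windows, the full cAMP response element was found in 1.55%, the 6-base form in 6.47%, the E-box in 6.02%, the D-box in 3.07% and the STAT site in 7.02%. The AP-1 site (6.75% of all windows), the κB site (7.25%), the CArG box (1.47%) and the glucocorticoid response element (0.00913%) matched in 0 of the 7 windows. The glucocorticoid response element was searched only as its exact inverted repeat, found in 3 of all windows. Its lack of a match therefore says nothing about glucocorticoid control of these genes. The windows of Junb, Bcl3 and Nfil3 held 0 matches, which says only that these letters are not in these 250 bases. GC content was 81.6% at Nfil3 and between 62.0% and 71.6% in the other 6 windows, against a median of 52.4% over all windows. The motif shares over all windows were not matched for GC content.

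**Figure D1:**
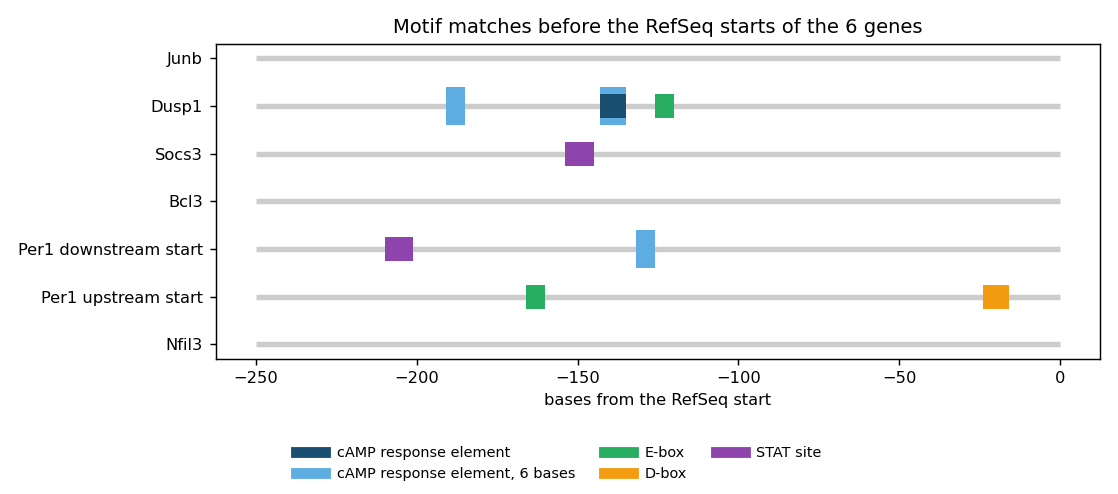
Motif matches in the 250 bases before the RefSeq starts of the 6 genes, with distance from the start in bases on the x axis and a row for each start. Matches lie at Dusp1, Socs3 and both Per1 starts, and the rows of Junb, Bcl3 and Nfil3 are empty.

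All values below are log2 of the deposited RMA intensity, where a step of 1 is a doubling, and a difference is Nod2-/- minus WT. All 6 genes were on average higher in Nod2-/-, by between 1.38-fold (Junb and Per1) and 1.80-fold (Nfil3), with a median log2 difference of 0.62. The median over all 28853 probe sets was -0.007. All 6 pass the fold that admits a gene to the table, as 2.11% of probe sets do upward, and 0 of the 6 reached 2-fold, which 0.149% did. In 4 of the 6, every Nod2-/- array lay above every WT array, as did 3.42% of all probe sets and 29.6% of the 744 named genes of the table. As the choice used this contrast, nothing is read from that count. With limma over all probe sets, 0 (0.00%) had an adjusted p under 0.05 (lowest adjusted p = 0.183) and 1106 (3.83%) had an unadjusted p under 0.05. The unpaired test that the table's header names, recomputed here, also gave 0 after adjustment and 1043 before it.

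Junb (chr8:87500809-87502647, mm9, minus strand, the span of the whole gene) measured 5.86, 5.83 and 6.09 on WT arrays 1, 2 and 3 and 6.43, 6.38 and 6.38 on the Nod2-/- arrays. All 3 Nod2-/- arrays lay above the highest WT array, by at least 0.29, and within 0.05 of each other. The means were 6.40 ± 0.03 (SD, n = 3) and 5.93 ± 0.14, a difference of 0.47 with a limma standard error of 0.083. Junb had the smallest spread of the 6 genes. Its residual SD of 0.104 was near the median of all probe sets (0.118), and with any 1 array left out the difference stayed between 0.42 and 0.55.

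Dusp1 (chr17:26642536-26645406, minus strand) measured 5.41, 5.87 and 6.10 on the WT arrays and 6.18, 7.05 and 6.45 on the Nod2-/- arrays. The genotypes did not overlap, but the lowest Nod2-/- array was only 0.08 above the highest WT array. The means were 6.56 ± 0.44 and 5.79 ± 0.35, a difference of 0.77 (1.70-fold, limma standard error 0.276). Nod2-/- replicate 2 was the highest array, and without it the difference was 0.52.

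Socs3 is named for a pair of probe sets. The one on the gene's own strand (chr11:117827393-117830500, minus strand) stands for it here. It measured 5.27, 5.61 and 5.67 in WT and 5.82, 6.09 and 6.79 in Nod2-/-. The genotypes were apart by 0.15, and Nod2-/- replicate 3 was well above the other arrays. The means were 6.23 ± 0.50 and 5.52 ± 0.22, a difference of 0.72 (1.64-fold, limma standard error 0.266) that came to 0.44 without Nod2-/- replicate 3. WT replicate 1, at 5.27, lay close to the array medians (5.11 to 5.15). No background level was available to set it against, and the fold of Socs3 could be larger than measured.

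The other Socs3 probe set lies inside the same span on the opposite strand (chr11:117828445-117828886, plus strand) and carries no RefSeq transcript in the authors' table. It measured 5.26, 5.84 and 6.40 in WT and 5.52, 6.76 and 7.65 in Nod2-/-. These genotypes overlap, with Nod2-/- replicate 1 below WT replicates 2 and 3. Its difference was 0.81, and 0.30 without Nod2-/- replicate 3. On both strands replicate 1 was the lowest array and replicate 3 the highest within each genotype.

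Bcl3 (chr7:20393811-20408064, minus strand) measured 7.03, 7.69 and 7.44 in WT and 7.50, 8.27 and 7.97 in Nod2-/-. The genotypes overlapped, because Nod2-/- replicate 1 lay below WT replicate 2. The means were 7.91 ± 0.39 and 7.39 ± 0.33, a difference of 0.53 (1.44-fold, limma standard error 0.25). It was 0.35 without WT replicate 1 and likewise without Nod2-/- replicate 2.

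Of the clock genes, Per1 (chr11:68912436-68923465, plus strand) measured 6.47, 5.84 and 6.28 in WT and 6.64, 6.42 and 6.92 in Nod2-/-. The genotypes overlapped by 0.05, as Nod2-/- replicate 2 lay just below WT replicate 1. The means were 6.66 ± 0.25 and 6.19 ± 0.32, a difference of 0.47 (limma standard error 0.202). It rested in part on the low WT replicate 2, without which it was 0.29. Per1 was the smallest of the 6 before rounding, at 0.465, where the fold that admits a gene to the table is 0.41 (Heg1, a named gene just inside it, had 0.412, and the nearest probe set below it 0.411).

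Nfil3 (chr13:53062578-53076408, minus strand) measured 5.56, 6.35 and 5.59 in WT and 6.84, 6.50 and 6.71 in Nod2-/-. The genotypes did not overlap, with a gap of 0.15 set by WT replicate 2, the only WT array near the Nod2-/- range. The means were 6.68 ± 0.17 and 5.83 ± 0.44, a difference of 0.85 (1.80-fold, limma standard error 0.233). Without WT replicate 2 it was 1.10, and without WT replicate 1 it was 0.71.

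**Figure D2:**
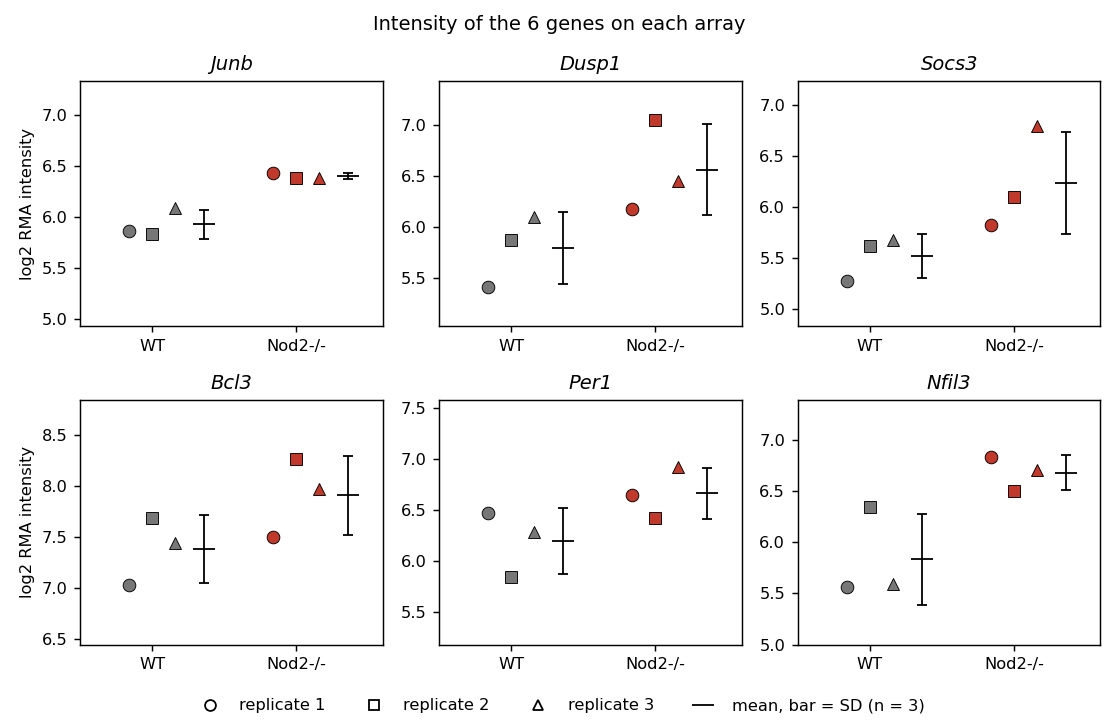
Log2 RMA intensity of the 6 genes (y axis, the same length in each panel) on the 3 WT and 3 Nod2-/- arrays, with the replicate number as the symbol and mean ± SD beside the points. Junb, Dusp1, Socs3 and Nfil3 do not overlap between genotypes, whereas Bcl3 and Per1 do.

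The 6 genes did not share an order of arrays within a genotype. Nod2-/- replicate 3 lay above every WT array for all 6 genes, and Nod2-/- replicates 1 and 2 for 5 each. All 3 Nod2-/- arrays together did so in 3.42% of all probe sets and 29.6% of the 744 named genes of the table. That condition is stricter than for a single array, and the share for a single array was not computed. The 6 genes were chosen on this contrast, so nothing is read from these counts. Each Nod2-/- array was the highest of all arrays for 2 of the 6 genes, namely Junb and Nfil3 on replicate 1, Dusp1 and Bcl3 on replicate 2, and Socs3 and Per1 on replicate 3. WT replicate 1 was the lowest of all arrays for Dusp1, Socs3, Bcl3 and Nfil3, and WT replicate 2 for Junb and Per1. Apart from Junb, the residual SD within genotypes lay between 0.289 (Per1) and 0.400 (Dusp1), above that of at least 85.6% of probe sets.

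The column names carry a number in the form of a date, shared by replicate 1 of both genotypes and different from that of replicates 2 and 3. What it dates is not stated. All 6 genes were higher in Nod2-/- on both dates, with a median log2 difference of 0.56 for replicate 1 (1 array a genotype) and 0.62 for replicates 2 and 3. For Dusp1 the differences were 0.77 and 0.76, for Bcl3 0.47 and 0.55, for Junb 0.56 and 0.42, and for Socs3 0.55 and 0.80. Among the probe sets that stand for the 6 genes, those of the clock genes moved furthest between dates, and in opposite ways. Per1 differed by 0.17 for replicate 1 and 0.61 for the others, and Nfil3 by 1.27 and 0.63. The Socs3 probe set on the opposite strand moved further still, from 0.26 for replicate 1 to 1.08 for the others.

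**Figure D3:**
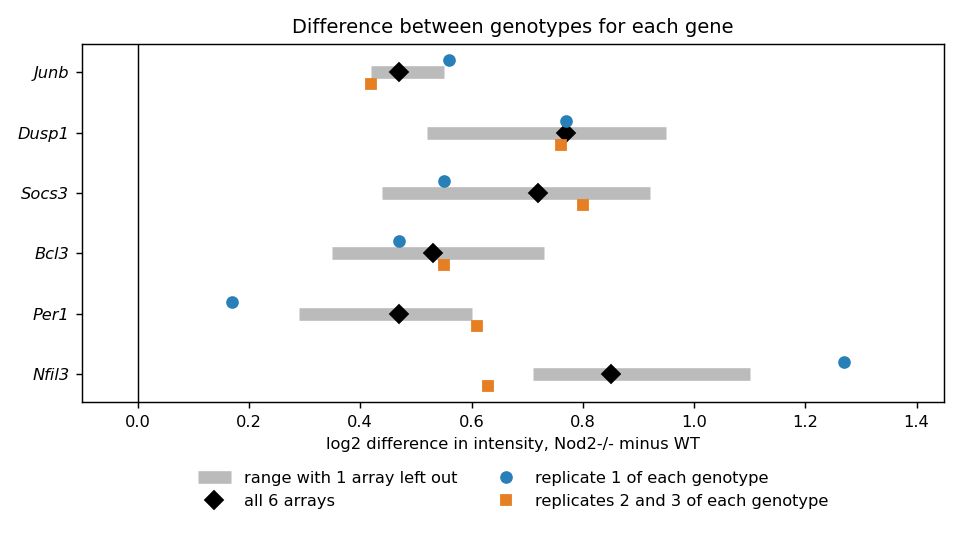
Log2 difference in intensity (x axis, Nod2-/- minus WT) for each of the 6 genes, over all 6 arrays (diamonds), for replicate 1 of each genotype (circles), for replicates 2 and 3 (squares) and with 1 array left out (grey range). All values lie above 0, from 0.17 for Per1 to 1.27 for Nfil3, both for replicate 1.

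The date itself was not used to choose the genes, and it could be tested with genotype as the other term. Dusp1, Socs3 and Bcl3, which encode a kinase phosphatase, a cytokine inhibitor and an NF-κB cofactor, were lowest on replicate 1 in both genotypes, as were 18.0% of all probe sets. For Dusp1, replicates 2 and 3 averaged 0.58 above replicate 1 in WT and 0.56 above it in Nod2-/-. For Bcl3 the values were 0.54 and 0.62, and for Socs3 0.37 and 0.62. In the fit with both terms the date difference was 0.58 for Bcl3, beside a genotype difference of 0.53, 0.57 for Dusp1 beside 0.77, and 0.49 for Socs3 beside 0.72. For the Socs3 probe set on the opposite strand it was 1.27, larger than its genotype difference of 0.81. None passed in limma over all probe sets (adjusted p = 0.481 for Dusp1, 0.328 for Bcl3, 0.587 for Socs3 and 0.431 for its opposite-strand probe set). At that threshold 0 probe sets (0.00%) were called by date, and 2655 (9.20%) had an unadjusted p under 0.05. Averaged over genotypes, Junb (0.028, adjusted p = 0.954), Nfil3 (0.086, adjusted p = 0.947) and Per1 (-0.19, adjusted p = 0.836) had smaller date differences in the same fit. Within WT, replicates 2 and 3 averaged 0.40 above replicate 1 for Nfil3, while the value for Per1 was -0.41. Both rested largely on WT replicate 2 (6.35 for Nfil3 and 5.84 for Per1). WT replicate 3 (5.59 and 6.28) lay nearer to WT replicate 1 (5.56 and 6.47), although it shares the date of replicate 2. Within Nod2-/- the same average differences were -0.23 for Nfil3 and 0.03 for Per1, so the average for Nfil3 is small because its values have opposite signs. Whether the date difference itself differs between genotypes was not tested.

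**Figure D4:**
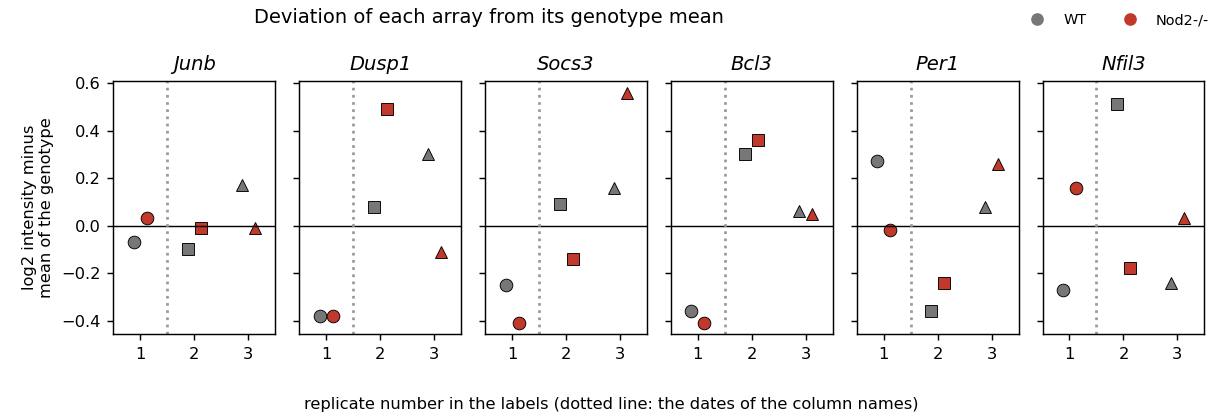
Log2 intensity of each array minus the mean of its genotype (y axis) against the replicate number (x axis) for the 6 genes, with WT in grey and Nod2-/- in red and the dotted line between the dates. Replicate 1 lies below 0 in both genotypes for Dusp1, Socs3 and Bcl3, between -0.41 and -0.25.

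By intensity profile, the 5 named genes most like the mean of the 6, after each gene was centred within genotype, were Ly6a, Pmepa1, Retnlg, Atp6v0d1 and Slc51b, with Pearson's r of 0.98, 0.98, 0.97, 0.96 and 0.96 over 6 arrays. Of these, Ly6a encodes a cell surface protein induced by interferon, Retnlg a resistin-like protein, and Slc51b a subunit of the bile acid exporter. Atp6v0d1, a proton pump subunit, was lower in Nod2-/- (difference -0.43) and the other 4 were higher (0.41 to 0.95). Without centring, the 5 were Marcksl1 (0.99), Zbtb25, Ndufaf4, Ppid and Slc51b (0.98 each), with differences of 0.33 to 0.58. The mean profile was not one that the 6 genes share after centring, since r between pairs of them had a median of 0.10 and was above 0 in 9 of 15 pairs, the lowest being -0.63 (Bcl3 and Per1). Without centring, the median over the 15 pairs was 0.67, a value that includes the higher Nod2-/- mean for which the 6 genes were chosen. These coefficients of likeness are the highest of 738 genes, all selected for a genotype difference, and share the same 6 arrays, so they describe likeness only.

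Among wider lists of related genes, only genes with a probe set of 1 symbol in the annotated table could be followed. A gene without one was either below the table's thresholds or not measured under its symbol. The table holds 3.65% of all probe sets, which stands beside each count below, and the counts that include any of the 6 genes are not independent of how these were selected. That share counts probe sets with 1, several or no symbols, whereas the lists count genes, so it is not a like rate for them. The table admits genes by their genotype difference, and the lists were chosen with earlier results known. All counts and medians of lists are therefore a description. In the table as a whole, 60.1% of the 744 genes had a higher mean in Nod2-/-, and the median log2 difference was 0.43. Of 51 immediate early genes 5 are in it, 4 higher and 1 lower, with a median of 0.47. Besides Junb and Dusp1, Gadd45g, a stress sensor that binds MAP3K4, was higher without overlap (6.26 ± 0.34 against 5.73 ± 0.17, and 0.34 rather than 0.53 higher without Nod2-/- replicate 2), and Cebpd, a bZIP factor induced by STAT3 and by glucocorticoids, was higher with overlap (6.28 ± 0.22 against 5.83 ± 0.25). Btg1, an antiproliferative gene, was lower with overlap (8.24 ± 0.47 against 8.82 ± 0.36, a difference of -0.57 that was -0.30 without Nod2-/- replicate 1). Fos, Jun, Egr1, Atf3 and Ier2, the best known of the class, are not in it.

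Of 26 circadian clock genes, 2 are in the table, Per1 and Nfil3 themselves. Dbp and Nr1d1, outputs of the clock with large daily swings, and Per2 and Arntl have no place in it. Of 39 NF-κB pathway genes, 1 is in it, Bcl3, and Nfkbia and Tnfaip3, the feedback inhibitors, are not. Of 16 MAP kinase feedback genes, 2 are in it, Dusp1 and Spred2, an inhibitor of Ras signalling that was higher without overlap (7.95 ± 0.21 against 7.31 ± 0.29). Of 20 heat shock and stress genes, 0 are in it with 1 symbol. A probe set shared by Ddit3 and Mars, of which Ddit3 encodes a factor of the unfolded protein response, was 0.58 higher without overlap.

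Of 24 glucocorticoid-induced genes, 5 are in the table, all higher, with a median of 0.49. Besides Per1, Dusp1 and Cebpd these were Cdkn1a, a cell cycle inhibitor (6.83 ± 0.26 against 6.24 ± 0.18, no overlap), and Ddit4, an inhibitor of mTORC1 (8.62 ± 0.26 against 8.12 ± 0.37, with overlap). A pair of probe sets shared by Klf9 and Gm9971, on opposite strands, was 0.68 and 0.58 higher, the first without overlap. Tsc22d3 and Fkbp5, widely used markers of glucocorticoid action, have no place in the table.

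The cytokine and STAT3 list had the most genes of any signalling list. Of 41 genes 10 are in the table, against 3.65% of all probe sets, all higher and with a median of 0.70. Of the 10, 3 are Socs3, Bcl3 and Junb, which were chosen for their difference. The other 7 had a median of 0.73, but they too were admitted to the table by their difference. The list was also chosen with earlier results of these data known, so its count and medians are a description only. Tifa, an adaptor of TRAF signalling, measured 8.39 ± 0.23 against 7.66 ± 0.39 without overlap, and Fut2, a fucosyltransferase, was 1.07 higher. Reg3b, an antibacterial lectin, was 1.88 higher, with 7.42 on WT replicate 1, 11.42 and 10.20 on the other WT arrays and 11.32 to 11.70 in Nod2-/-. Reg3g, its neighbour, was 0.96 higher. Duox2, Duoxa2 and Lrg1 were between 0.47 and 0.69 higher, all with overlap. Several of these values rested on 1 array. Without WT replicate 1, Reg3b was 0.75, Reg3g 0.30 and Duox2 0.29 higher. Duoxa2 was 0.13 higher without Nod2-/- replicate 2. Lrg1 was 0.10 higher without Nod2-/- replicate 3 and differed by -0.13 for replicate 1 of each genotype. Without WT replicate 1 the median of the 10 was 0.44. The median of the 6 genes followed here, which were chosen for being higher on these arrays, was 0.58 without that array.

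**Figure D5:**
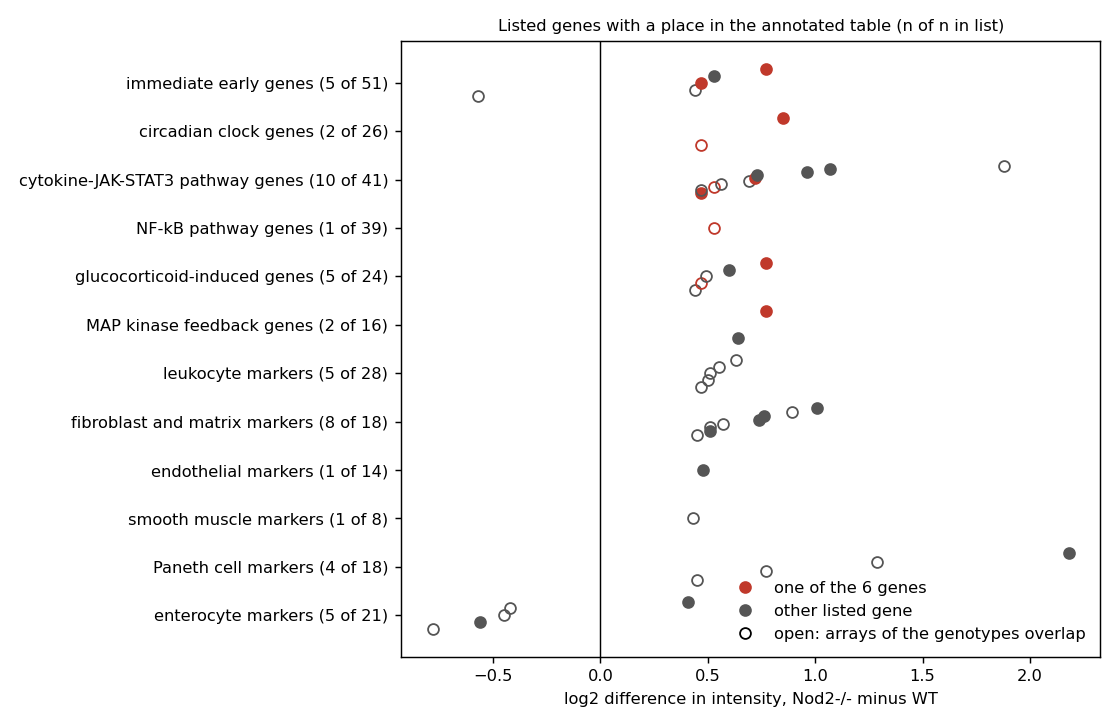
Log2 difference in intensity (x axis, Nod2-/- minus WT) of listed genes with a probe set of 1 symbol in the annotated table, in a row for each list, with the 6 genes in red and open symbols where the arrays of the genotypes overlap. The cytokine and STAT3 list holds 10 of 41 genes, all above 0, and the clock list only Per1 and Nfil3.

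Some markers of other cells are also in the table, which admits genes by their genotype difference. Of 18 fibroblast and matrix markers 8 are in the table (3.65% of all probe sets are), Fn1, Igfbp5, Bgn, Lum, Mgp and Sparc among them, all higher, with a median of 0.65 (0.36 without WT replicate 1). Their summed intensity ran from 1503 to 2558 in WT and from 2461 to 4305 in Nod2-/-. Of 28 leukocyte markers 5 are in it (Cd74, H2-Aa, C1qc, Fcer1g and Tyrobp), all higher and all with overlap, with a median of 0.51. Their summed intensity ran from 456 to 2265 in WT and from 1598 to 2229 in Nod2-/-. WT replicate 1 set the leukocyte difference, with a mean log2 value of 6.35 against 7.99 to 8.32 on the other 5 arrays, and without it the median was -0.07. Without the same array the 6 genes were 0.35 (Bcl3) to 0.71 (Nfil3) higher. They were chosen for being higher on these arrays, so nothing about leukocyte content is read from this. Ptprc, Cd3e and Col1a1 have no place in the table.

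Of 14 endothelial markers 1 is in the table with 1 symbol, Emcn (0.48 higher, no overlap, and 0.27 without Nod2-/- replicate 2). Both probe sets shared by Ly6c1 and Ly6c2 were 0.73 and 0.57 higher with overlap. Of 8 smooth muscle markers 1 is in it, Actg2 (0.43 higher with overlap, and 0.18 without Nod2-/- replicate 2). Of 8 red blood cell markers 0 are in it with 1 symbol, while both probe sets shared by Hbb-b1 and Hbb-b2 were 0.62 and 0.52 higher with overlap. Of 18 Paneth cell markers 4 are in it, all higher on average, with a median of 1.03. Mptx1 did not overlap between genotypes, whereas Reg4, Pnliprp2 and Clps did. The summed intensity of the 4 ran from 5245 to 11090 in WT and from 8382 to 18211 in Nod2-/-. Of 21 enterocyte markers 5 are in it, with Slc51b higher and the fatty acid or bile acid binders Fabp2 and Fabp6, the peptidase Anpep and the urea cycle enzyme Otc lower. Their median difference was -0.45, and -0.28 without WT replicate 1. Single arrays carried 2 of them, as Fabp6 went from -0.78 to -0.09 without WT replicate 1 and Anpep from -0.45 to -0.01 without Nod2-/- replicate 2. The part of these cells in the values of the 6 genes was not tested, and more cells of a type and more RNA per cell cannot be told apart in such samples.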

How the data were processed

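RNA of laser-captured epithelial cells was measured on 6 MoGene 1.0 ST arrays, 3 per genotype, from 100 ng of RNA each, per the labels' protocols. Per the submitters' processing notes the deposited intensity values come from RMA, whose settings are not stated. They are linear (18.8 to 12280), so log2 was taken. Array medians lay between 5.11 and 5.15, and correlations between arrays across probe sets between 0.971 and 0.987. The authors' annotated table (release 31, mm9, per the file headers) holds 3.65% of probe sets. Its deposited intensities equal the value table in all 1053, and its deposited ratio to the WT median and log2 value minus that median were recomputed and equal (tolerance 0.001). All probe sets with at least a 1.33-fold difference, or with p of 0.05 or less and 1.25-fold, are in it and no others. Of its probe sets, 855 have 1 symbol, 104 several and 94 none. Symbols were updated by Entrez number for 800. Where a gene had several probe sets, the brightest was used, except for Socs3.

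The test was limma 3.58.1 (R 4.3.3) with genotype as the only term on all 28853 probe sets, without a filter, adjusted by Benjamini-Hochberg at 0.05. It was tested on simulated data with planted changes of at least 2-fold, larger than those of the 6 genes. Python 3.11.15 was used otherwise. The genes and lists were chosen with earlier results of these data known. Genes were named by rule: the 6 genes, up to 6 of each list by size, and the 5 most like profiles. Duoxa2, Lrg1, genes absent from the annotated table, Heg1 and the probe sets of several symbols were named besides, after values were seen. The test of date and the search for motifs were added after values were seen. Replicate numbers were not taken to pair arrays, as deviations from the genotype means correlated at 0.201, -0.022 and 0.061 for numbers 1, 2 and 3. Alternatives left out each array, blocked on replicate or date, filtered dim probe sets, changed the prior, the centring, the scale or the centre, and used the unpaired test.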

Additional observations from a re-analysis of the deposited data

How the results depend on the processing

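The 6 genes were chosen for being higher on these same arrays, so the sign of their values under the alternatives is a description only. All 79 values of the 6 genes under the alternatives stayed above 0, between 0.17 and 1.27, and most moved by less than 1 SD between arrays. The exceptions were Per1 (0.17) and Nfil3 (1.27) within the date of replicate 1, which is 1 array a genotype. The median of the 6 lay between 0.49 (without Nod2-/- replicate 3) and 0.75 (without Nod2-/- replicate 1). The count of probe sets past limma's adjusted threshold was 0, and with an array left out 0 to 2. It was 3 with probe sets below the median left out (lowest adjusted p = 0.0239) and 3 with a trended and robust prior (lowest adjusted p = 0.00604). With the replicate block it was 0 (lowest adjusted p = 0.969), and with the date block 0 (lowest adjusted p = 0.432). Neither block changes the differences themselves, because the design is balanced, so the block values among the 79 repeat the main ones. With 3 arrays a genotype, the number of arrays limits the precision, and signal over background was not analysed.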
